A study of Mus musculus with 2 samples.

Results

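The proteasome genes described here were the protein-coding genes of the GENCODE vM21 annotation on the mouse autosomes whose symbol begins with Psm, a letter from a to g and a number. This rule gave 49 genes of 20807 autosomal protein-coding genes. They were followed through H3K4me3 CATCH-seq, a carrier-assisted ChIP-seq for few cells, of lung group 2 innate lymphoid cells (ILC2) from adult offspring. The comparison asks how this mark lies in offspring whose mothers had allergic airway disease during pregnancy and in offspring of control mothers. Both groups were wild-type C57BL/6J mice of 8 weeks (collected at 7 to 9 weeks). Control mothers were given PBS with alum on days -21 and -7 and intranasal PBS between days 4 and 17 of pregnancy. OVA-treated mothers were given 100 µg of ovalbumin (OVA) with alum on the same days and 500 µg of OVA intranasally on the same schedule, and all mothers were 6 to 8 weeks old at the first injection. Each group gave 1 library from about 3000 sorted ILC2 and derived from 1 pregnant dam, so no value has a replicate, no test between the groups was made, and the group cannot be told apart from the dam, the sort or the library.

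The proteasome is the protease that degrades ubiquitin-tagged proteins. Its 20S core is a stack of rings made of alpha subunits, which gate the entrance, and beta subunits, some of which are the proteolytic enzymes. A 19S cap unfolds the substrates. In immune cells and under interferon, the catalytic beta subunits Psmb5, Psmb6 and Psmb7 can be replaced by Psmb8, Psmb9 and Psmb10, which form the immunoproteasome and alter the peptides presented on MHC class I. H3K4me3, trimethylation of lysine 4 of histone H3, marks the starts of active genes and commonly sits just downstream of the start.

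A peak was counted as a start peak of a gene when any of its bases lay within 1000 bp of any annotated transcript start. The marked width of a gene is the sum of the widths of its start peaks. The strength of a peak is given by the authors' −log10 q, by its percentile among all peaks of the same list, by the authors' fold over the local background, and by the number of fragments at the summit. The fragment number of a gene is that of its start peak with the most fragments in each list, which need not be the same peak in both. It is a derived value: it was worked back from the fold and the −log10 p under a Poisson background. The list of the PBS group held 42126 peaks and that of the OVA group 51610 peaks. How the peaks were called is not stated. A sequencing total is stated for the ChIP-seq as a whole but not for each library, and intervals on counts cover counting error only. The sorted cells carried start peaks at 12 of 16 ILC2 marker genes in the PBS list and at 9 of 16 in the OVA list, with Gata3, Il7r and Il5 in the PBS list alone, against 52.5% and 43.7% of all autosomal coding genes. Icos, Klrg1, Il13 and Hes1 had none in either list. Markers of other cell types had a start peak at 3 of 42 genes (PBS) and 1 of 42 (OVA), and none of the T cell, B cell, macrophage, neutrophil or fibroblast markers had one. Those marked were the epithelial Epcam and Cdh1 and the endothelial Kdr (PBS), and the epithelial Sftpb (OVA). Epcam had a −log10 q of 14.7, below Il2ra (15.7) and above the other ILC2 markers of the PBS list (highest Areg, 12.7).

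The 250 bases before the reference start are shown for 5 beta-ring genes with unlike marks. Psmb6 and Psmb9, the narrowest and the widest of the ring in the PBS list, are not shown because their runs overlap annotated exons. Psmb4 had the strongest start peak of all proteasome genes in the PBS list, Psmb5 and Psmb7 are constitutive catalytic subunits, Psmb10 is an immunoproteasome subunit with a wide mark, and Psmb3 is the constitutive core subunit without a start peak. The bases are read 5′ to 3′ toward the start from the GRCm38 reference. Capitals mark matches, on either strand, to any of 8 short motifs. These were the box CCAAT, the GC box GGGCGG, the TATA box TATAAA, the antioxidant response core TGACNNNGC, the STAT-type core TTCNNNGAA, the interferon-response core GAAANNGAA, the ETS core CGGAAG and the YY1 core AAGATGG.
Psmb4 (chr3:94886962-94887211, minus strand): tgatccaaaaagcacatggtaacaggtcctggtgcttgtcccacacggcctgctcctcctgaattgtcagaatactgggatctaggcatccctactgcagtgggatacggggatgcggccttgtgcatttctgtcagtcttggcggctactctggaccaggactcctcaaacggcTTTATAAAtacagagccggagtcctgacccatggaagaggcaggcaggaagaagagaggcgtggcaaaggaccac
Psmb5 (chr14:54618023-54618272, minus strand): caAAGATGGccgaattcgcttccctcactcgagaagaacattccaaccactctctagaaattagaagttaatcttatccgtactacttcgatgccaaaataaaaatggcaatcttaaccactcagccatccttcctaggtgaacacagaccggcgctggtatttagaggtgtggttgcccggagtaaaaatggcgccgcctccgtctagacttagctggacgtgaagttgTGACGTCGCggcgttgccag
Psmb7 (chr2:38644088-38644337, minus strand): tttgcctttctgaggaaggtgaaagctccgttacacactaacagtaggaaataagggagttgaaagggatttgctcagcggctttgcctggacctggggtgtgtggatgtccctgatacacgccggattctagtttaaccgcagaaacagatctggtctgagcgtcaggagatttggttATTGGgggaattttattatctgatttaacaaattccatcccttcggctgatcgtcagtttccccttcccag
Psmb10 (chr8:105938445-105938694, minus strand): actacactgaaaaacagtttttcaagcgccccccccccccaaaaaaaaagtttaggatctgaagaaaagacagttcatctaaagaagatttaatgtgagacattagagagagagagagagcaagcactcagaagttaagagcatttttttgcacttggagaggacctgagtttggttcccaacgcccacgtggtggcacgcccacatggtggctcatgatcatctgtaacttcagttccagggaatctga
Psmb3 (chr11:97703149-97703398, plus strand): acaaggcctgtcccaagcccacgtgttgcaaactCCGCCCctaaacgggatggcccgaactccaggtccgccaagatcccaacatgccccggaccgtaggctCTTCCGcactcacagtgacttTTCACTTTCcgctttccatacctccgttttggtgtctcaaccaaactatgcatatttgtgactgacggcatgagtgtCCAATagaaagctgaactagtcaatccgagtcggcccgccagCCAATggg
The Psmb10 run held no match, and its capitals are therefore absent. The Psmb3 run held 5 matches, among them both of its CCAAT boxes, and Psmb4 held overlapping TATAAA matches on both strands.

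Nearly all proteasome genes carried H3K4me3 at a start. In the PBS list, 45 of 49 had a start peak (91.8%, exact Clopper-Pearson 95% interval 80.4 to 97.7%), against 52.5% of all autosomal coding genes. The OVA list marked 42 of 49 (85.7%, 72.8 to 94.1%), against 43.7% of all. Both lists marked 42 genes (43.1% of all coding genes), and in each of these 42 the peaks of the lists overlapped. Psmc5, Psmd9 and Psmg4 were marked in the PBS list only (9.37% of all), and no proteasome gene was marked in the OVA list only (0.634% of all). Psma8, Psmb3, Psmb11 and Psme2b had no start peak in either list (46.9% of all). The other families set beside them, also genes of ubiquitous multi-subunit machines, were marked at like shares in the PBS list. Cytosolic ribosomal protein genes were marked in 74 of 84 (88.1%) and mitochondrial ribosomal protein genes in 75 of 78 (96.2%). In the OVA list these were 73 of 84 (86.9%) and 59 of 78 (75.6%). Whether these shares differ from those of the proteasome genes was not tested.

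**Figure D1:**
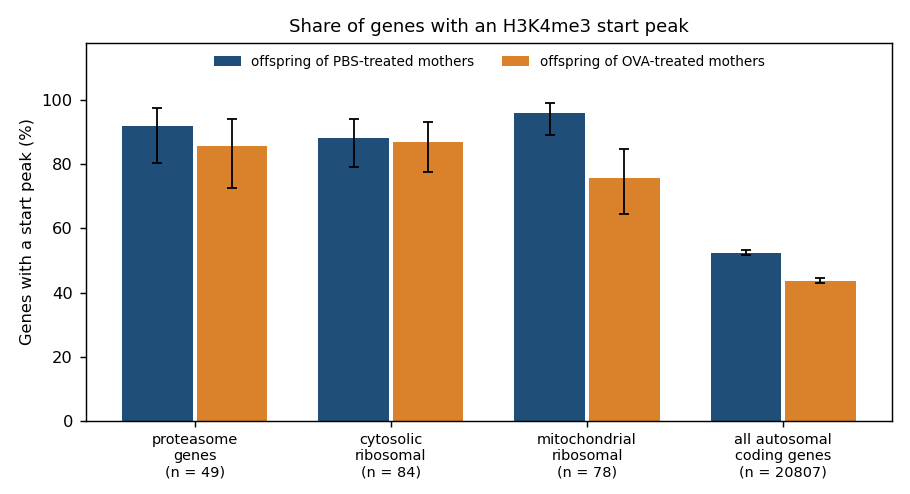
Share of genes with an H3K4me3 start peak (%, vertical axis) for the proteasome genes, the ribosomal protein genes and all autosomal coding genes in each list; error bars are exact 95% binomial intervals and cover counting error only. The proteasome genes stand at 91.8% and 85.7%, against 52.5% and 43.7% of all coding genes.

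The 4 unmarked genes were of different kinds. Psma8 replaces an alpha subunit in testis and Psmb11 is the beta subunit of the thymus cortex. Their nearest peaks lay 7717 and 3415 bp from a start in the PBS list and 6369 and 3467 bp in the OVA list, and for Psmb11 the nearest peak in both lists was the start peak of its neighbour Psmb5. Psme2b is a close copy of Psme2, a subunit of the PA28 activator, with its nearest peaks 32391 bp (PBS) and 30482 bp (OVA) away. Psmb3, by contrast, is a constitutive subunit of every beta ring. Its reference start is at position 97703399 of chromosome 11, plus strand, and its nearest peaks ended 2912 bp (PBS) and 3067 bp (OVA) before that start. Around the Psmb3 start, 76 of 78 windows of 75 bases had no exact copy elsewhere in the genome. For Psma8 and Psmb11 this was 78 of 78 windows each, and for Psme2b 59 of 78. The CpG content of the Psmb3 promoter, as the ratio of observed to expected CpG in the 300 bases around the start, was 0.753, near the median of all proteasome genes (0.783). That of Psmb11 was 0.166 and that of Psme2b 0.325, and Psma8 had 0.764. Psmb3 thus lacked a start peak although its CpG ratio was near the median of the proteasome genes. What the missing peak reflects was not tested.

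Outside the rule, Psmd10, a 19S assembly chaperone on the X chromosome, had no start peak in either list. The 4 annotated entries with a Psm symbol that encode no protein (Psmb5-ps, Psmb6-ps, Psmb6-ps2 and Psmb7-ps2) had none either. Psmc3ip matches the rule by its symbol alone, since it encodes a meiotic recombination factor, and was marked in both lists (520 bp and 202 bp).

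In the PBS list the median marked width of the 45 marked proteasome genes was 561 bp (order-statistic 95% interval 526 to 653 bp), against 639 bp over all marked coding genes. In the OVA list it was 381.5 bp (327 to 444 bp) against 399 bp. The strongest start peak of a proteasome gene had a median percentile of 89.1 by −log10 q in the PBS list (all marked coding genes 83.1) and of 72.0 in the OVA list (61.2), where its interval of 53.3 to 79.7 holds the value of all genes. The cytosolic and mitochondrial ribosomal protein genes had median percentiles of 88.5 and 85.3 in the PBS list and of 60.8 and 60.4 in the OVA list. The median summit held 29 fragments (all 26) and 17 fragments (all 17). The cytosolic ribosomal protein genes were wider in both lists, with medians of 683 bp (PBS) and 426 bp (OVA), and had medians of 30 and 17 summit fragments. The mitochondrial ribosomal protein genes had median widths of 569 bp (PBS) and 324 bp (OVA).

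**Figure D2:**
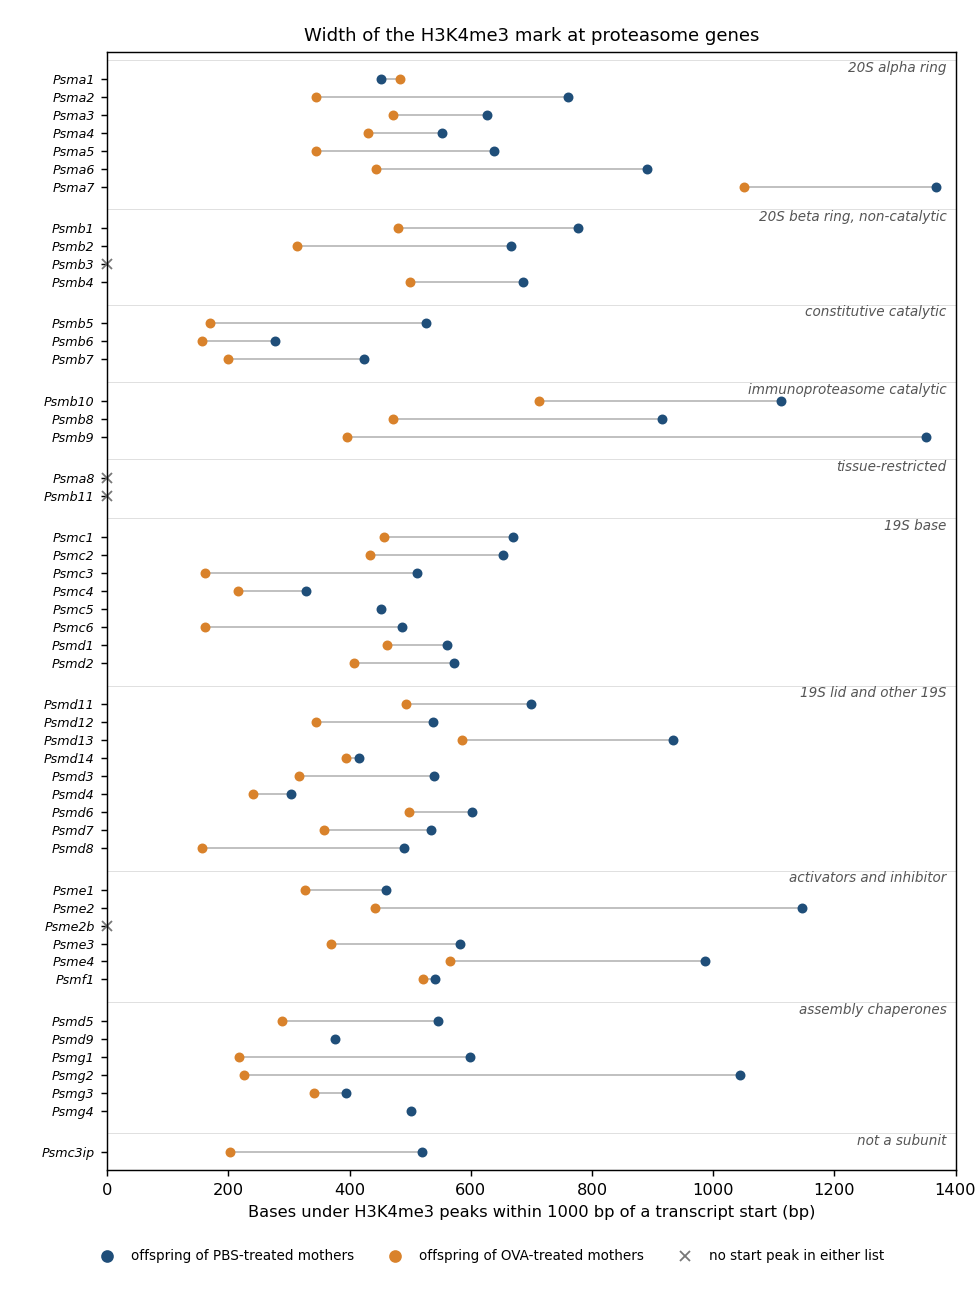
Marked width (bp, horizontal axis) of each of the 49 proteasome genes, grouped by role; a line joins the PBS and OVA values of 1 gene, and a cross marks a gene with no start peak. The 3 immunoproteasome genes lie to the right of the 3 constitutive catalytic genes in both lists, and Psma1 is the only gene whose summed width is larger in the OVA list.

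All 7 constitutive alpha-ring genes, whose products form the outer rings and the gate, were marked in both lists. Psma7 had the widest mark of all proteasome genes in both, 1367 bp over 3 peaks (PBS) and 1051 bp over 2 peaks (OVA). Its start lies 76 bp from that of Ss18l1 on the opposite strand, and only 1 of its peaks in each list covered its own first exon (679 and 553 bp). Psma1 was the narrowest of the ring in the PBS list (451 bp) and Psma2 in the OVA list (344 bp). Psma3 had 626 and 471 bp, Psma5 638 and 345 bp and Psma6 891 and 444 bp. Psma1 was also the only proteasome gene with a wider summed mark in the OVA list, at 483 bp over 2 peaks against 1 peak in the PBS list. One of these OVA peaks (211 bp) lay wholly upstream of the start, and by the widest single peak Psma1 was narrower in the OVA list (272 bp against 451 bp).

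Of the non-catalytic beta-ring genes, Psmb1, Psmb2 and Psmb4 were marked in both lists and Psmb3 in neither. The PBS peak of Psmb4 (chr3:94886450-94887136, 687 bp) had its summit in intron 1 and reached a −log10 q of 33.0, a fold of 13.4 and 40 summit fragments (exact Poisson 95% interval 28.6 to 54.5). These were the highest values of any proteasome gene in that list. Its OVA peak (chr3:94886413-94886912, 500 bp) had a −log10 q of 12.6 and 20 fragments (12.2 to 30.9). The intervals overlap only at their ends.

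The catalytic subunits allow each constitutive gene to be set beside the immunoproteasome gene that replaces it. By marked width the immunoproteasome gene was the wider of each pair in both lists, but the OVA mark counted for Psmb9 was 1 peak wholly upstream of its start and inside Tap1. Psmb5, which carries the chymotrypsin-like activity, was marked over 526 bp (PBS) and 169 bp (OVA), and its counterpart Psmb8 over 915 and 472 bp. Psmb6, with the caspase-like activity, was marked over 277 and 156 bp, and Psmb9 over 1352 and 395 bp. Psmb7, with the trypsin-like activity, was marked over 424 and 200 bp, and Psmb10 over 1112 and 713 bp. The ranges of the 3 constitutive and the 3 immunoproteasome genes therefore did not overlap in either list, and among all marked coding genes the constitutive genes stood at the 6.42 to 33.6 percentile of width in the PBS list and the immunoproteasome genes at the 81.0 to 96.8 percentile. Percentiles in the OVA list were 1.49 to 12.7 and 49.4 to 88.7. With the widest single peak of each gene in place of the sum, the narrowest immunoproteasome gene had 885 bp in the PBS list (Psmb9) and 352 bp in the OVA list (Psmb10), still wider than any constitutive catalytic gene. The 885 bp peak of Psmb9 also covered the Tap1 start. The other PBS peak of Psmb9, inside its own gene, had 467 bp, narrower than the 526 bp of Psmb5. The order of Psmb9 in the PBS list thus rests on a mark shared with Tap1.

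**Figure D3:**
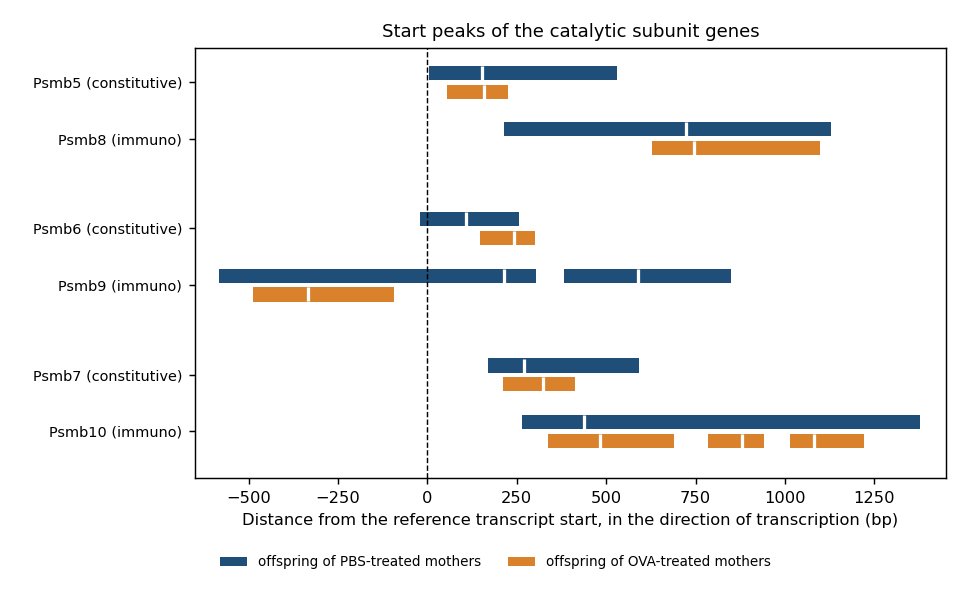
Start peaks of the catalytic subunit genes as bars along the distance from the reference start in the direction of transcription (bp, horizontal axis), with white ticks at the summits; each constitutive gene stands above the immunoproteasome gene that replaces it. By the longest bar in each list, Psmb8, Psmb9 and Psmb10 exceed Psmb5, Psmb6 and Psmb7. The longest PBS bar of Psmb9 also covers the Tap1 start, and the OVA peak of Psmb9 lies wholly upstream of its start.

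By fold and −log10 q, the wider gene of a pair was not the stronger one in the PBS list. There the constitutive genes had folds of 9.93 (Psmb5), 9.20 (Psmb6) and 8.44 (Psmb7), above the 6.98, 5.18 and 6.49 of Psmb8, Psmb9 and Psmb10. The summit counts were 31, 25 and 23 fragments against 30, 29 and 31, so by fragments Psmb9 and Psmb10 stood above their counterparts and Psmb8 did not. The local background was 2.22, 1.83 and 1.84 fragments against 3.44, 4.79 and 3.93. The background was itself worked back from the fold and is no independent measure. In the OVA list the folds were 5.15, 4.68 and 4.68 for the constitutive genes against 5.14, 6.19 and 6.04, so the order was the opposite for Psmb6 and Psmb7 and nearly equal for Psmb5. By −log10 q the constitutive gene stood higher in each pair of the PBS list, at 21.1, 16.8 and 14.6 against 15.1, 10.8 and 14.5, and lower in each pair of the OVA list. There the constitutive genes had −log10 q of 5.59, 4.38 and 4.38, at the 27.8, 11.6 and 11.6 percentile of the list, and the immunoproteasome genes 7.02, 11.3 and 8.14, at the 49.3, 82.9 and 61.6 percentile. The summits held 13, 11 and 11 fragments against 18, 25 and 17. The Poisson interval was 6.9 to 22.2 for Psmb5 and 10.7 to 28.4 for Psmb8, 5.5 to 19.7 for Psmb6 and 16.2 to 36.9 for Psmb9, and 5.5 to 19.7 for Psmb7 and 9.9 to 27.2 for Psmb10. These intervals overlap within each pair, and whether the pairs differ was not tested. Psmb6 and Psmb7 had the lowest −log10 q of all marked proteasome genes in that list, and Psmb9 (10.8) the lowest in the PBS list.

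Where the immunoproteasome peaks lie depends on the start that is used. Psmb8 is read from the plus strand, chromosome 17. Its PBS peak (chr17:34198004-34198918) and OVA peak (chr17:34198417-34198888) both had their summit in exon 1, 723 and 745 bp after the GENCODE reference start. The RefSeq start lies 405 bp further downstream, and from it the summits were 318 and 340 bp away. Psmb10, on the minus strand of chromosome 8, had 1 PBS peak over exons 1 to 4 (chr8:105937068-105938179), and in the OVA list that stretch held 3 peaks of 352, 156 and 205 bp with summits in exons 1, 3 and 4. Psmb9 lies head to head with Tap1, a subunit of the peptide transporter that carries proteasome products into the endoplasmic reticulum. The reference starts of both genes are 211 bp apart and their first exons overlap, so every start peak of Psmb9 was also one of Tap1. The peaks were chr17:34186917-34187383 (467 bp) and chr17:34187462-34188346 (885 bp) in the PBS list and chr17:34187858-34188252 (395 bp) in the OVA list. The OVA peak lay wholly upstream of the Psmb9 start and inside Tap1, and the PBS peak of 467 bp, in the Psmb9 gene, was overlapped by no OVA peak. The share of this mark that belongs to Psmb9 cannot be told apart from that of Tap1.

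The 19S base unfolds substrates with a ring of the ATPases Psmc1 to Psmc6 and holds the scaffold subunits Psmd1 and Psmd2. All 8 genes were marked in the PBS list, between 328 bp (Psmc4) and 669 bp (Psmc1), and 7 in the OVA list, between 161 bp (Psmc3 and Psmc6) and 461 bp (Psmd1). Psmc6 had 486 bp and 30 fragments in the PBS list and 161 bp and 12 fragments in the OVA list, and its −log10 q was 21.0 (95.7 percentile) and 5.17 (22.2 percentile). Psmb5, with 31 and 13 fragments, showed a similar pair of values. Psmc3 had 511 and 161 bp. The peaks of Psmc2 lay wholly upstream of its start in both lists, on the side of Dnajc2, which starts 32 bp away on the opposite strand.

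The lid and other 19S subunits recognise and remove ubiquitin, among them the ubiquitin receptor Psmd4 and the deubiquitinase Psmd14. All 9 genes were marked in both lists. Psmd13 had the widest mark of this group in both (933 and 585 bp) and starts 99 bp from Sirt3 on the opposite strand. Psmd4 had a narrow mark in the PBS list (304 bp, 26 fragments) and in the OVA list (241 bp, 21 fragments), where its −log10 q of 13.6 was the highest of any proteasome gene. Psmd8 was marked over 489 and 156 bp, the OVA width being the smallest of any proteasome gene in that list, shared with Psmb6. Psmd3 had 35 and 14 fragments and Psmd14 26 and 19. The widths of the other genes of this group were 699 and 493 bp for Psmd11, 538 and 345 bp for Psmd12, 602 and 498 bp for Psmd6 and 534 and 357 bp for Psmd7.

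Among the activators and the inhibitor, Psme1, Psme2, Psme3, Psme4 and Psmf1 were marked in both lists. Psme1 and Psme2 encode the PA28 activator, which like the immunoproteasome responds to interferon. Psme1 had a peak of 460 bp with 38 fragments and a −log10 q of 27.9 in the PBS list, below Psmb4 alone, and of 327 bp with 17 fragments in the OVA list. Psme2 was marked over 1146 bp (3 peaks) and 442 bp (2 peaks), but its strongest summit lay at -919 and -835 bp from its start, on the side of Rnf31, whose start is 621 bp away on the opposite strand. Psme4 was marked over 986 and 566 bp. Psmf1, the inhibitor PI31, had 541 and 521 bp, and its summits lay 3173 and 3348 bp after the GENCODE reference start but 297 and 472 bp after the RefSeq start.

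The assembly chaperones build the core and the base before the proteasome is active. Psmd5, Psmd9 and Psmg1 to Psmg4 were all marked in the PBS list, and Psmd5, Psmg1, Psmg2 and Psmg3 in the OVA list. Psmg2 had the lowest ratio of widths of all proteasome genes, with 1045 bp (PBS) and 225 bp (OVA), while its summit held 31 and 19 fragments. Both summits lay upstream of its start, at -586 and -542 bp, on the side of Cep76, which starts 263 bp away on the opposite strand. The OVA peak lay wholly upstream of the Psmg2 start. Psmg1 had 598 bp over 2 peaks (PBS) and 217 bp over 1 (OVA), and its strongest summits, with 23 and 19 fragments, were not at the same site. Psmg3, among the 5 narrowest marks of the PBS list, had 394 and 341 bp with 21 and 13 fragments. Of the genes marked in the PBS list only, Psmd9 had a peak in exon 1 (chr5:123228204-123228579, 376 bp, 23 fragments), Psmg4 one in exon 1 (chr13:34162995-34163496, 502 bp, 28 fragments) and Psmc5 one with its summit in intron 1 (chr11:106256179-106256630, 452 bp, 25 fragments). The nearest OVA peaks were 17479, 8583 and 16219 bp from a start. Among coding genes with a PBS −log10 q within 0.5 of theirs, 6.82% of 821 genes lacked an OVA start peak for Psmd9, 8.62% of 789 for Psmc5 and 15.9% of 780 for Psmg4. These were 56, 68 and 124 genes. Of all coding genes marked in the PBS list, 82.1% also had an OVA start peak.

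Whether a marked gene was also marked in the OVA list went with its strength in the PBS list. When all marked coding genes were split by PBS −log10 q into 4 groups of like size, from the weakest to the strongest, 51.3%, 85.9%, 94.3% and 97.0% also had an OVA start peak. The proteasome genes in these groups numbered 0, 7, 17 and 21, of which 0, 5, 16 and 21 were also marked in the OVA list. Their high share in both lists thus stands beside their strength, and 93.3% of those marked in the PBS list were marked in the OVA list (all coding genes 82.1%).

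In the 42 genes marked in both lists, the OVA library had the narrower summed mark in 41 and the wider one in 1 (Psma1, which was narrower by its widest single peak). Over all coding genes marked in both lists, 94.7% were narrower in the OVA library, the direction that most genes of the library took. The median ratio of widths (OVA over PBS) was 0.630 and ranged from 0.215 (Psmg2) to 1.07 (Psma1), against a median of 0.627 over all coding genes. Between the strongest peaks of each list, summit fragments were fewer in the OVA library in 42 of 42 genes, with a median ratio of 0.590 (all coding genes 0.611, fewer in 97.3%). For 5 of these 42 genes (Psma1, Psmb1, Psmb9, Psmd13 and Psmg1) these were not overlapping peaks. Over all coding genes with overlapping start peaks, this held for 647 of 8893. For Psma7, whose 2 OVA peaks both held 16 fragments, the OVA peak of higher −log10 q did not overlap the strongest PBS peak either. When overlapping peaks were compared instead, the OVA library had fewer fragments in 41 genes and more in 1 (all coding genes fewer in 97.1%), with a median ratio of 0.587. The exception was Psmg1, with 18 (PBS) and 19 (OVA) fragments at summits 3 bp apart. Between the strongest peaks, ratios ran from 0.353 (Psmf1, 34 and 12 fragments) to 0.862 (Psmb9, 29 and 25 fragments). The Psmb9 values came from peaks that do not overlap, and the overlapping PBS peak held 28 fragments. The constitutive catalytic genes had ratios of 0.419 (Psmb5), 0.440 (Psmb6) and 0.478 (Psmb7), and the immunoproteasome genes 0.600 (Psmb8), 0.862 (Psmb9) and 0.548 (Psmb10). The difference between these triplets was not tested. The smallest peak of the OVA list was 156 bp wide and that of the PBS list 190 bp. Expressed in units of these smallest widths, the median mark of a proteasome gene was 2.45 (OVA) and 2.95 (PBS), so the lists were closer on that scale than in bp. The smallest local background, divided by the smallest peak width, was 100.4 (OVA) and 96.1 (PBS) fragments per 10000 bp. The median local background at the start peaks of proteasome genes was 1.59 fragments (OVA) and 2.55 fragments (PBS), and over all coding genes 1.67 and 2.51.

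**Figure D4:**
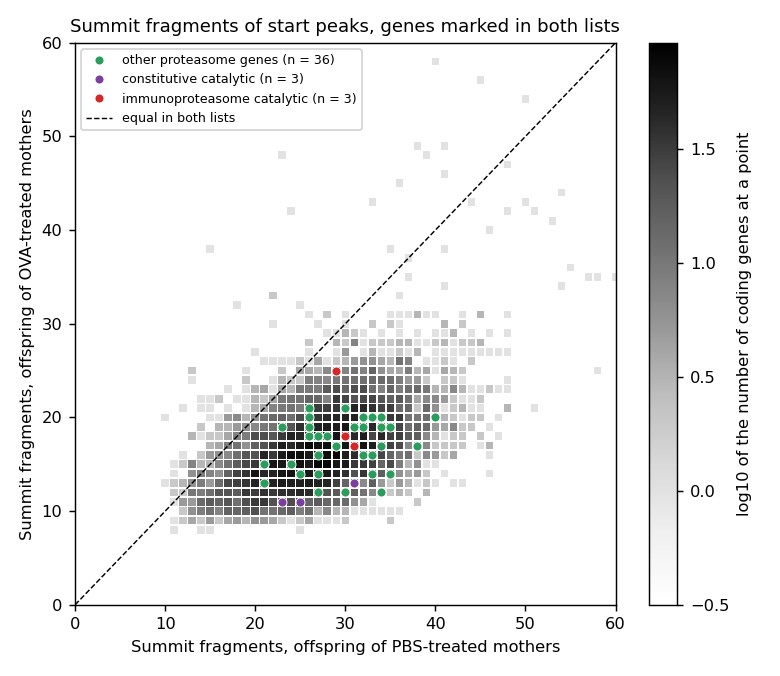
Summit fragments of start peaks in the PBS list (horizontal axis) and the OVA list (vertical axis) for the 8968 coding genes marked in both (grey squares, darker for more genes on a log10 scale), with the 42 proteasome genes in colour; 31 genes lie beyond the axes. Each gene is placed by its strongest peak in each list. On that basis all 42 proteasome genes lie below the dashed line of equal counts, although overlapping peaks of Psmg1 held 18 and 19 fragments.

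The mark sat downstream of the start. In the PBS list the summit of the strongest start peak was downstream of the reference start in 40 of 45 proteasome genes (88.9%, all coding genes 81.5%), and within the first 500 bp in 35 (77.8%, all 66.8%). In the OVA list this was 33 of 42 (78.6%, all 81.5%) and 31 (73.8%, all 66.0%). The median summit lay 236 bp (PBS) and 187.5 bp (OVA) after the start. From the RefSeq starts, known for fewer genes, the medians were 196 bp over 38 marked genes (PBS) and 181 bp over 35 (OVA). Of all 58 PBS and 51 OVA start peaks, 45 and 35 covered part of exon 1. Peaks of the PBS list were overlapped by an OVA peak in 47 of 58 (81.0%, 68.6 to 90.1%; all start peaks 70.9%), and OVA peaks by a PBS peak in 50 of 51 (98.0%, 89.6 to 99.95%; all 95.9%).

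Several of the widest marks were shared with a neighbour. For 9 of 49 proteasome genes (18.4%, all coding genes 9.78%) the reference start of another coding gene on the opposite strand lay within 1000 bp. The partners were Mrpl32 (Psma2), AY074887 (Psma4), Ss18l1 (Psma7), Tap1 (Psmb9), Dnajc2 (Psmc2), Ftsj3 (Psmc5), Sirt3 (Psmd13), Rnf31 (Psme2) and Cep76 (Psmg2). These 9 genes had a median marked width of 933 bp in the PBS list, and the 36 marked genes without such a partner 540 bp. Over all coding genes the medians were 770 and 613 bp. Of the 5 widest marks in the PBS list, those of Psma7, Psmb9, Psme2 and Psmg2 were at such shared starts and that of Psmb10 was not. In the OVA list the 8 marked genes with a partner had a median of 432.5 bp and the 34 without one 351 bp (all coding genes 430 and 393 bp).

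Promoters of the proteasome genes, taken as 250 bases before to 50 after the reference start, held the ETS core CGGAAG in 27 of 49 (55.1%), against 20.8% of 20719 coding promoters and 33.2% of the 10866 with a PBS start peak. AAGATGG was found in 9 of 49 (18.4%, all 6.29%, marked 7.48%), at Psmb5 242 to 248 bases before the start. GGGCGG stood in 29 (59.2%, all 45.9%, marked 65.6%) and CCAAT in 17 (34.7%, all 38.2%, marked 38.3%). TATAAA was found in 5 (10.2%, all 12.5%, marked 6.65%) and GAAANNGAA in 7 (14.3%, all 8.41%, marked 7.22%). TTCNNNGAA stood in 5 (10.2%, all 7.92%, marked 6.63%). TGACNNNGC, part of the element bound by the proteasome gene regulators Nfe2l1 and Nfe2l2, stood in 7 (14.3%, all 12.7%, marked 14.2%), and at Psmb5 it lay 12 to 20 bases before the start. A match is a run of letters and not a bound site. The median CpG ratio was 0.783 (all 0.570, marked 0.783) and the median GC content 57.3% (all 56.0%, marked 61.3%). Psmb10 had a CpG ratio of 0.249, the lowest of any marked proteasome gene, and among the 5 widest marks of both lists.

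Other genes of the ubiquitin and proteasome pathway were also marked. Of 23 genes listed, 22 were matched in the annotation and all 22 had a start peak in both lists (43.1% of all coding genes), narrower in the OVA list in 20 and wider in 2 (Ddi2, 448 and 450 bp, and Rad23b, 654 and 666 bp). Over all coding genes marked in both lists, 94.7% were narrower in the OVA list, so this direction is not particular to the pathway. They included the subunits Adrm1 (544 and 463 bp) and Sem1 (646 and 556 bp), the maturation factor Pomp (903 and 587 bp), the regulators Nfe2l1 (514 and 242 bp) and Nfe2l2 (1414 and 704 bp), and substrate shuttles such as Vcp (865 and 776 bp). The 10 antigen-processing partners of the immunoproteasome were all marked in both lists, and all 10 were narrower in the OVA list like most genes, among them the transporter gene Tap2 (767 and 658 bp), the MHC class I light chain B2m (1054 and 538 bp) and the interferon-response factor Irf1 (890 and 406 bp).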

How the data were processed

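The data were 1 H3K4me3 CATCH-seq library of lung ILC2 per group, grouped by the labels. The authors trimmed the reads with Trim Galore and cutadapt, aligned them to mm10 with Bowtie2 and removed duplicates; chromatin was cut with MNase. The peak caller, its control and its threshold are not given in the sources used here: the study names MACS2 for its ATAC-seq and states that it called no peaks on ChIP-seq data, so how the deposited H3K4me3 peak lists were made is not stated. For each peak the deposited lists give a score, a fold (the ratio of summit signal to background), and a p-value and a q-value, each as −log10. None of these peak-list values is scaled between libraries. No column of another series was present (0).

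Peaks were matched to GENCODE vM21 starts (GRCm38), within 1000 bp. The reference start is that of the APPRIS principal protein-coding transcript. Summit fragments k and background b were solved from fold = (k + 1)/(b + 1) and the Poisson p, within 0.001 for 100% of start peaks; this assumes MACS-style values and no control library. The scripts recovered 2000 of 2000 simulated summits, 250 of 250 overlaps and 300 of 300 peaks near a start. Promoter bases came from the GRCm38 reference, and RefSeq starts from its promoter table (GRCm38.p6); printed runs overlap no annotated exon. Ribosomal protein genes were taken by symbol, without the Rps6k kinases. The work used matplotlib 3.10.9, Python 3.11.15, scipy 1.17.1, pandas 2.3.3 and numpy 2.4.6. Every gene of the rule is accounted for by name, with values for the catalytic pairs, the widest and narrowest 5 marks, the highest and lowest −log10 q, and genes marked in 1 list or neither. The genes and lists were chosen with earlier results of these data known. Shares carry exact Clopper-Pearson, summit fragments exact Poisson 95% intervals, and medians order-statistic intervals.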

Additional observations from a re-analysis of the deposited data

How the results depend on the processing

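No paired analysis was possible because each group holds a lone library. Of 170 values under 18 alternatives, 141 stayed within 1.5 times (counts and ratios) or within the 95% interval (shares and medians), and 29 moved. A change of sign was possible for the summit position alone, and none was seen there. The other distances, start definitions and gene sets moved no count beyond 1.5 times. With the 5′ end of the gene alone, 41 (PBS) and 39 (OVA) proteasome genes were marked. Leaving out Psma8 and Psmb11 could not change the number marked, since neither was marked.
With −log10 q of at least 5, 6 proteasome genes were marked in 1 list only instead of 3, and likewise 6 with both lists at the length of the shorter. With at least 10, OVA marked 16 proteasome genes (16 in both lists, 29 in 1), 1 immunoproteasome gene and 2606 coding genes; the median percentiles were 66.7 (PBS) and 33.7 (OVA), the OVA median was 20 fragments, and 30.6% of PBS peaks were overlapped. With the 10000 strongest peaks of each list, OVA marked 14 (13 in both, 32 in 1), 1 immunoproteasome gene and 2044 coding genes, and PBS 7041 coding genes; the percentiles were 56.1 and 26.2, the OVA median 20 fragments, and 26.7% (PBS) and 85.7% (OVA) of peaks were overlapped. These sets hold fewer peaks by construction.
Overlap of 50% of both peaks left 53.4% and 60.8% shared, and joined peaks gave 94.8% and 100%. Widths over the smallest width were 2.95 and 2.45. Overlapping start peaks in place of the strongest, chosen after seeing the data, gave fewer OVA fragments in 41 genes instead of 42. From RefSeq starts, also chosen then, the PBS summit median was 196 bp. The 1 library per group, with no read total per library, limits every value to a description of these libraries.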
